A study of Mus musculus with 14 samples.

Results

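The SLAM (signalling lymphocytic activation molecule) receptors and their adaptor SAP were followed in CD4+ T-cells of mice that carry 1 sanroque allele of Roquin and of wild-type mice. The members were chosen by name as the adaptor gene Sh2d1a, which encodes SAP, and 7 receptor genes of the family, Slamf1, Slamf6, Slamf7, Cd84, Ly9, Cd48 and Cd244. All 8 genes were found among the 36870 gene names on the array. They were measured by 20 of its 56605 probes.

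Total RNA was taken from CD4+ T-cells of 14 mice, 7 of them Roquin san/+ and 7 wild-type. Each sample was labelled with Cy3 and hybridised to a one-colour Agilent array of 60-base probes. Roquin, encoded by Rc3h1, is an RNA-binding protein, and the sanroque allele is a point mutation of it. The labels gave genotype and an array letter from A to G, and no age, sex or treatment of the mice. Nothing in them said that a letter marks a shared litter or day.

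SLAM receptors are surface proteins of lymphocytes, most of which bind the same receptor on a neighbouring cell. Tyrosine motifs in the tails of most of them bind SAP, a small SH2-domain adaptor that recruits the kinase Fyn. Where SAP is missing, the same tails recruit phosphatases, and CD4+ T-cells then hold B-cells poorly and give little help to germinal centres. SAP, SLAMF6 and CD84 are for that reason studied in T follicular helper (Tfh) cells, the population that expands in mice with the sanroque allele.

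One probe of each gene is given here, since the same gene often had several probes that did not move together. For Slamf7 and Ly9 it is the representative probe, the tested one with the highest mean, whose levels stand for the gene in the results. For the other 6 genes the representative probe lies elsewhere (its name is given with its levels), and the probe shown is a second one whose values are also given. The letters are those of the array annotation with mm9 coordinates, and capitals mark bases in a run of 15 or more that a probe of another gene on the array also holds, on either strand.
Sh2d1a A_55_P2745462, chrX:39873846-39873905, plus strand: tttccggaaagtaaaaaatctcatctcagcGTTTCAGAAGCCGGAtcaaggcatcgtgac
Slamf1 A_52_P158959, chr1:173718133-173722451, plus strand: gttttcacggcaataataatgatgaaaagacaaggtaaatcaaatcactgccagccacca
Slamf6 A_52_P45563, chr1:173866817-173868145, plus strand: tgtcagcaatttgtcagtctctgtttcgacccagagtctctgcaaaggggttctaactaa
Slamf7 A_52_P261262, chr1:173569299-173569358, minus strand: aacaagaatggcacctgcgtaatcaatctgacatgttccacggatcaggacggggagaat
Cd84 A_55_P2054445, chr1:173816502-173818732, plus strand: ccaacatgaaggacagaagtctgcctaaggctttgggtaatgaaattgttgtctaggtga
Ly9 A_51_P497171, chr1:173518744-173518790, minus strand: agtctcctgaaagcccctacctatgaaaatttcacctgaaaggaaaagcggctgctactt
Cd48 A_55_P2132549, chr1:173629721-173629780, plus strand: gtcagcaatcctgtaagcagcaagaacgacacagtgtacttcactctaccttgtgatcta
Cd244 A_52_P541344, chr1:173507474-173508000, plus strand: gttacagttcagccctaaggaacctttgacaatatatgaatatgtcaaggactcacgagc

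The Slamf1, Slamf6, Cd84 and Cd244 probes covered far more genome than their 60 bases, so each crosses an exon boundary. Among the genes that RefSeq lists as protein-coding, the 7 receptor genes lie next to each other on chromosome 1, except for Tma7-ps between Cd48 and Slamf1. Their order is Cd244a, Ly9, Slamf7, Cd48, Slamf1, Cd84 and Slamf6. Sh2d1a lies on the X chromosome. The array's Cd244 is RefSeq's Cd244a.

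Several arrays stood apart from the rest. On Roquin san/+ G and wild-type E the values sat 2 grid rows away from their probe names (correlation with the other arrays 0.01 on both as deposited, 0.91 and 0.89 after the move), and they were moved back. Their lowest signals were 223 and 106, against 2.13 to 7.34 on the other 12 arrays, so dim probes had only a bound there. Roquin san/+ C had the lowest 75th percentile, and its signal rose with a slope of only 0.75 on the median of the other arrays, so that dim probes read above and bright ones below the other arrays. Wild-type E (slope 0.77), Roquin san/+ G (0.81) and, less so, Roquin san/+ F (0.90) were compressed too, and their dim probes also read above the other arrays. Roquin san/+ F held the strongest B-cell list (mean log2 level -0.38, against -6.34 to -2.24 on the other arrays), the strongest CD8, myeloid, natural killer (NK) and erythroid lists, and the weakest T-cell list (0.57). The T-cell genes Cd3d, Cd3e, Cd3g and Lck were well above background on all 12 correctly placed arrays. Slide 1 carried 5 of the Roquin san/+ and 2 of the wild-type arrays and slide 2 the reverse, so slide and genotype overlapped in part.

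Levels are log2 signal relative to the 75th percentile of each array, so that 1 unit is a 2-fold step and negative values lie below that percentile. Levels were compared between arrays on the same probe, because probes differ in how well they bind. Mean levels of different probes served only to choose each representative probe, and marker lists averaged levels over probes. Less RNA of a gene per cell and fewer cells that express it cannot be told apart in bulk RNA.

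All 8 members had a higher mean in Roquin san/+ than in wild-type CD4+ T-cells, by 0.10 for Ly9 to 0.62 for Slamf7 on the log2 scale, but 7 of 8 with the 75th percentile of all probes, with quantile normalization or with the authors' values, where Ly9 turned. None passed the test (0 of 8, limma with Benjamini-Hochberg adjustment over 32831 probes, adjusted p from 0.88 to 0.95), where 0% of all tested probes did. Higher means were common across the array, since 63.4% of all tested probes were higher in Roquin san/+ and their median difference was 0.10. The median of the 8 members was 0.36. It lay 0.26 above the median of all probes, and 0.13 to 0.38 above it under the other scalings, background corrections and values. All of these kept the displaced arrays. Without those arrays the members differed by 0.01 for Sh2d1a to 0.57 for Slamf7, and the median of all probes was 0.12. Sh2d1a, Ly9 (0.03) and Cd48 (0.07) then lay below that median, and the other members above it. The middle members were Slamf6 (0.18) and Slamf1 (0.28), so the members' median lay closer to that of all probes than with all 14 arrays. Over the 19 member probes tested, 18 were higher and 1 was lower, and none separated the genotypes. Without the displaced arrays 15 were higher and 4 were lower (2 of Sh2d1a, 1 of Slamf6 and 1 of Cd48). An unadjusted limma p below 0.05 was found for 1 member probe and for 3.23% of all probes, a share that moved with the arrays included.

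**Figure D1:**
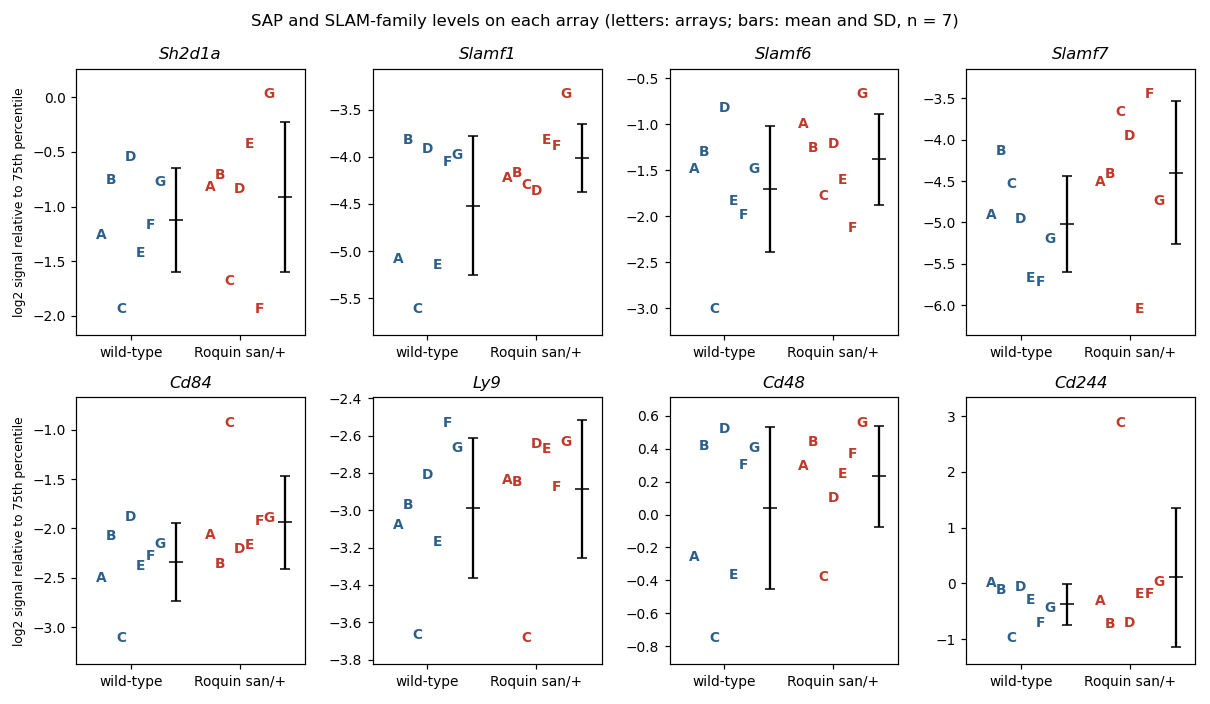
Level of each member's representative probe on each of the 14 arrays (letters), as log2 signal relative to the 75th percentile of the array, with the mean and SD of the 7 arrays of each genotype. The genotypes overlap in all 8 panels, wild-type C is lowest for 6 members, and Roquin san/+ C stands alone at 2.87 for Cd244 and at -0.93 for Cd84.

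Sh2d1a, the adaptor, did not differ detectably. The levels of its representative probe, A_55_P1958146, on the 7 Roquin san/+ arrays ran from -1.94 through a median of -0.82 to 0.03. On the wild-type arrays they ran from -1.94 through -1.17 to -0.55. The highest value was that of Roquin san/+ G and the lowest were those of wild-type C and Roquin san/+ F, so both genotypes held nearly the same lowest value. Means were -0.91 ± 0.69 and -1.12 ± 0.48 (SD, n = 7 each), a difference of 0.21 with a 95% interval from -0.44 to 0.87 (two-sided exact permutation p = 0.510). Without the displaced arrays the difference was 0.01 (exact permutation p = 0.991), and without Roquin san/+ G alone it was 0.06.

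The 5 Sh2d1a probes fell into 2 kinds. The probes A_51_P172514 and A_55_P2745462 followed the representative probe over the 14 arrays, with Pearson r of 0.93 and 0.85, and differed between genotypes by 0.21 and 0.28. Without the displaced arrays they differed by -0.12 and -0.14, and without Roquin san/+ G alone by 0.042 and 0.067. A_52_P641747 and A_55_P2012071 did not follow it (r of 0.16 and -0.30). The latter gave the widest difference of any member probe, 1.43 ± 0.63 (SE), with an unadjusted limma p of 0.040, an adjusted p of 0.88 and a two-sided exact permutation p of 0.062. Without the displaced arrays it differed by 1.71 (exact permutation p = 0.026, unadjusted). This probe was well above background on 5 of 6 correctly placed Roquin san/+ arrays and on 3 of 6 wild-type arrays, lay at the lowest signal of both displaced arrays, and was highest on Roquin san/+ C, where dim probes read high. It maps downstream of the other 4, at chrX:39880985-39881044, and was read from a different transcript record.

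Slamf6 encodes Ly108, a receptor that is its own ligand and signals through SAP. On the representative probe, A_55_P2723449, the Roquin san/+ arrays ran from -2.13 through -1.25 to -0.68. Wild-type arrays ran from -3.01 through -1.48 to -0.82. Wild-type C was the lowest and Roquin san/+ G the highest, and the remaining arrays of both genotypes were mixed. The difference was 0.32, with a 95% interval from -0.34 to 0.99 (exact permutation p = 0.346), and 0.10 without wild-type C. The other Slamf6 probes, A_52_P45563 and A_66_P140847, had r of 0.83 and 0.76 with this one and differences of 0.21 and 0.37, which were -0.023 and 0.43 without the displaced arrays.

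Slamf1 encodes SLAM itself, also self-binding. Levels of its representative probe, A_52_P550173, ran from -4.37 through -4.17 to -3.34 in Roquin san/+ and from -5.62 through -4.05 to -3.82 in wild-type. The wild-type arrays split, with A, C and E between -5.62 and -5.09 and B, D, F and G between -4.05 and -3.82. No Roquin san/+ array lay in the lower set, but the wild-type median was above the Roquin san/+ median while the wild-type mean was below it. The difference of means was 0.50, with a 95% interval from -0.15 to 1.15 (exact permutation p = 0.135). It was 0.32 without wild-type C, 0.33 with slide as a block and -0.01 when arrays were weighted by how well they fitted. The second probe, which crosses an exon boundary, was well above background on 9 of 12 arrays and did not follow the first (r = 0.11), with a difference of 0.52.

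Cd84 encodes a self-binding receptor that keeps T-cells attached to B-cells. On its representative probe, A_55_P2713778, Roquin san/+ arrays ran from -2.36 through -2.07 to -0.93. Wild-type arrays ran from -3.11 through -2.28 to -1.89. The value of -0.93 was that of Roquin san/+ C, and the other 6 arrays lay between -2.36 and -1.90, inside the wild-type range. The difference was 0.41, with a 95% interval from -0.10 to 0.91 (exact permutation p = 0.098). Without Roquin san/+ C it was 0.24. The probe that crosses an exon boundary did not put that array high (-3.30, in a range of -3.61 to -2.65 over all arrays), had r of 0.24 with the representative probe and differed by 0.11. The third probe had no value on the displaced arrays. On the other 12 it differed by 0.40 (exact permutation p = 0.242).

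Ly9 encodes CD229, a large self-binding receptor, and had 1 probe. It ran from -3.69 through -2.84 to -2.63 in Roquin san/+ and from -3.67 through -2.97 to -2.53 in wild-type. The lowest array of each genotype was its array C, and the other 12 arrays lay between -3.17 and -2.53. The difference of 0.10 (95% interval from -0.35 to 0.55, exact permutation p = 0.602) equalled the median of all probes.

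Cd48 encodes a receptor with a lipid anchor and no tail for SAP, the ligand of CD244 and CD2. Levels of its representative probe, A_55_P2185605, ran from -0.38 through 0.29 to 0.55 in Roquin san/+. In wild-type they ran from -0.75 through 0.30 to 0.52. The medians were nearly equal, and the lower wild-type mean came from arrays C, E and A at -0.75, -0.37 and -0.26. The difference was 0.19, with a 95% interval from -0.29 to 0.68 (exact permutation p = 0.409), and 0.06 without wild-type C. The second probe followed it with r of 0.85 and differed by 0.27, but by -0.07 without the displaced arrays and by 0.024 with slide as a block.

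Slamf7 encodes CRACC, a self-binding receptor best known on NK cells, plasma cells and activated lymphocytes. It ran from -6.05 through -4.41 to -3.45 in Roquin san/+ and from -5.72 through -4.96 to -4.14 in wild-type. The 3 Roquin san/+ arrays above every wild-type array were F, C and D, but the lowest of all 14 was also a Roquin san/+ array, E. Wild-type E lay at the lowest signal of its array and is a bound. The difference was 0.62, the widest among representative probes, with a 95% interval from -0.18 to 1.42 (exact permutation p = 0.140). It was 0.90 without Roquin san/+ E (exact permutation p = 0.017, unadjusted), 0.46 without Roquin san/+ F, 1.31 within slide 1 and -0.16 within slide 2. On slide 2 the Roquin san/+ group was 2 arrays, D and E.

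Cd244 encodes 2B4, the receptor for CD48, best known on NK cells and CD8 T-cells. Its representative probe, A_55_P1977812, ran from -0.73 through -0.19 to 2.87 in Roquin san/+ and from -0.99 through -0.31 to 0.00 in wild-type. The value of 2.87 was that of Roquin san/+ C, and the other 6 Roquin san/+ arrays reached 0.02 at most. The difference of 0.48 (95% interval from -0.50 to 1.47, exact permutation p = 0.453) fell to 0.02 without that array.

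This probe begins with the bases below, of which the capitals are held by probes of other genes. They resemble the end of the mouse B1 repeat.
Cd244 A_55_P1977812, first 30 of 60 bases: TGCACAGAGAAACCCTGTCTCAAtccctaa
In all, 46 of its 60 bases lay in runs shared with 17 probes of other genes on the same strand or 4 on the opposite strand. The 15 same-strand probes that were tested had a median of 2.77 above their own medians on Roquin san/+ C, against 0.52 for all tested probes, and 93.3% of them were highest there. The Cd244 probe was 3.12 above its own median on that array. On the other 13 arrays the median of the sharing probes stayed between -0.50 and 0.37. Whether the shared letters made the value was not tested.

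**Figure D2:**
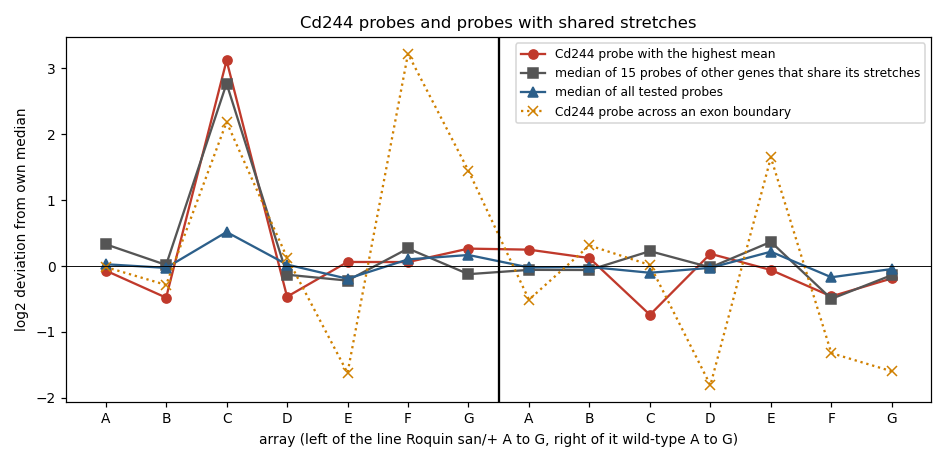
Deviation of 2 Cd244 probes from their own medians on each array in log2 units, beside the median deviation of 15 probes of other genes that share stretches with the first and of all tested probes. The first Cd244 probe and the sharing probes both peak on Roquin san/+ C (3.12 and 2.77), while the probe across an exon boundary peaks on Roquin san/+ F.

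The Cd244 probe that crosses an exon boundary, shown above, shares no such run. It was dim, well above background on 5 of 6 Roquin san/+ and 3 of 6 wild-type correctly placed arrays. Its values ran from -8.94 through -7.19 to -4.10 in Roquin san/+ and from -9.13 through -7.83 to -5.67 in wild-type. The -5.67, on wild-type E, and the value of Roquin san/+ G lay at the lowest signals of their arrays and are bounds. The next highest wild-type value was -7.01, on B. This probe was highest on Roquin san/+ F, the array with the strongest NK list (-0.93, against -4.30 to -3.26 on the other 13) and CD8 list (-0.17, against -6.56 to -3.89). The difference was 1.19 ± 0.72 (SE, exact permutation p = 0.159), and 1.42 without the displaced arrays (exact permutation p = 0.123). The part of NK or CD8 cell RNA in it was not tested.

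The third Cd244 probe, A_55_P2900848, had an exact permutation p of 0.034 (unadjusted) and an adjusted limma p of 0.88. Over the 14 arrays it was the only member probe with an exact permutation p below 0.05. It differed by 0.81, with 4 of 7 Roquin san/+ arrays above all wild-type arrays. Those were C at -0.51, F at -2.68, A at -3.21 and D at -3.48, against a wild-type range of -4.11 to -3.65. Without Roquin san/+ C the difference was 0.39 (exact permutation p = 0.057). Its position, chr1:173539819-173539877, lies beyond the Ly9 probe, away from the other Cd244 probes.

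**Figure D3:**
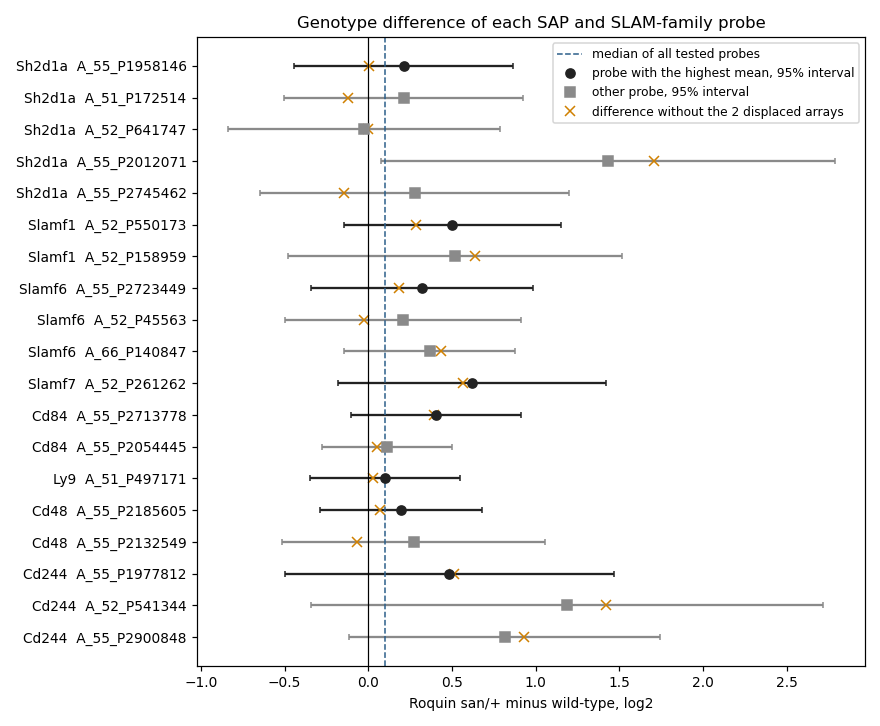
Roquin san/+ minus wild-type difference in log2 units of the 19 tested member probes with 95% intervals from limma, and the same difference without the 2 displaced arrays (crosses). The intervals of 18 probes include 0, the exception being the dim Sh2d1a probe A_55_P2012071, and the dashed line marks the median of all tested probes, 0.10.

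The members did not move as 1 block across arrays. With the mean of each genotype removed, the 28 pairs had a median Pearson r of 0.24 over the 14 arrays, from -0.56 to 0.90, as a description only, since arrays with a compressed or mixed signal enter every pair. The tightest pair was Slamf1 and Cd48 (r = 0.90), followed by Cd84 and Cd244 (0.84), Ly9 and Cd48 (0.83) and Sh2d1a and Slamf6 (0.83). The lowest were Ly9 and Cd244 (-0.56) and Sh2d1a and Slamf7 (-0.49). The Cd84 and Cd244 pair shared the peak on Roquin san/+ C. Cd244 stands here for A_55_P1977812, the probe with the shared runs. The Cd244 probe across an exon boundary had r of 0.34 with it, and A_55_P2900848 had 0.86.

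Wild-type C was the lowest of the 14 arrays for 6 of 8 members, with a median deviation of -1.0 from the members' own medians. The exceptions were Slamf7 and Ly9. On that array the T-cell list was 0.83, below the span of 1.66 to 2.15 that held the remaining wild-type arrays, and the Tfh list was -3.55, the lowest of all. Roquin san/+ G was highest for 4 of 8 members, Sh2d1a, Slamf1, Slamf6 and Cd48, and also had the highest Tfh list (-0.15, with the remaining Roquin san/+ arrays from -2.06 to -1.39).

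**Figure D4:**
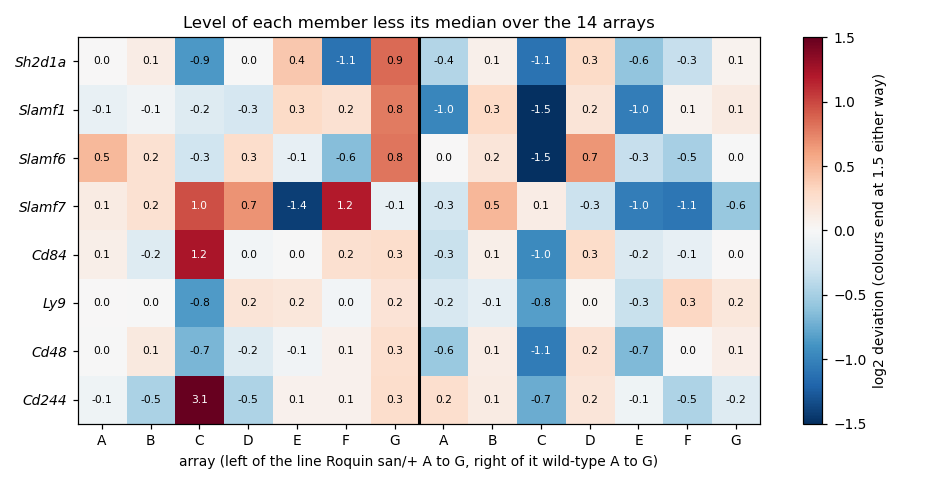
Deviation of each member's representative probe from its median over the 14 arrays, in log2 units, by array. The column of wild-type C is low for all members but Slamf7, Roquin san/+ G is high for all members but Slamf7, and Roquin san/+ C is split between low (Sh2d1a, Ly9, Cd48) and high (Slamf7, Cd84, Cd244).

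Sh2d1a and Slamf6 followed the T-cell list over the arrays, with Pearson r of 0.86 and 0.79 (n = 14, genotype means removed, no test), and Slamf6 also the Tfh list (0.77). By rank the T-cell list was followed less closely, with Spearman rho of 0.74 and 0.60, and of 0.51 and 0.41 without Roquin san/+ F. Ly9 followed the T-cell list too (r = 0.67, rho = 0.66), and Cd48 less so (0.55 and 0.42). Without Roquin san/+ F, Ly9 (rho = 0.68) and Cd48 (0.57) followed it more closely than Sh2d1a and Slamf6 did. The 6 Tfh genes, which mark the B-cell helper subset, had list levels from -2.06 to -0.15 in Roquin san/+ and from -3.55 to -1.20 in wild-type. Slamf7 ran against the T-cell list (-0.60) and with the B-cell (0.67), plasma cell (0.67) and myeloid (0.66) lists. Ly9 ran against the plasma cell list (-0.84), and Sh2d1a and Slamf6 ran against the erythroid list (-0.78 and -0.74). The plasma cell list ranged from -2.62 to -0.68 in Roquin san/+ and from -3.37 to -1.36 in wild-type, and both C arrays, which were lowest for Ly9, were its 2 highest. The myeloid list ranged from -2.85 to 1.05 in Roquin san/+ and from -3.87 to -1.31 in wild-type, and the erythroid list from -6.92 to 1.04 and from -7.87 to -1.04. What part other cells had in these levels was not tested.

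**Figure D5:**
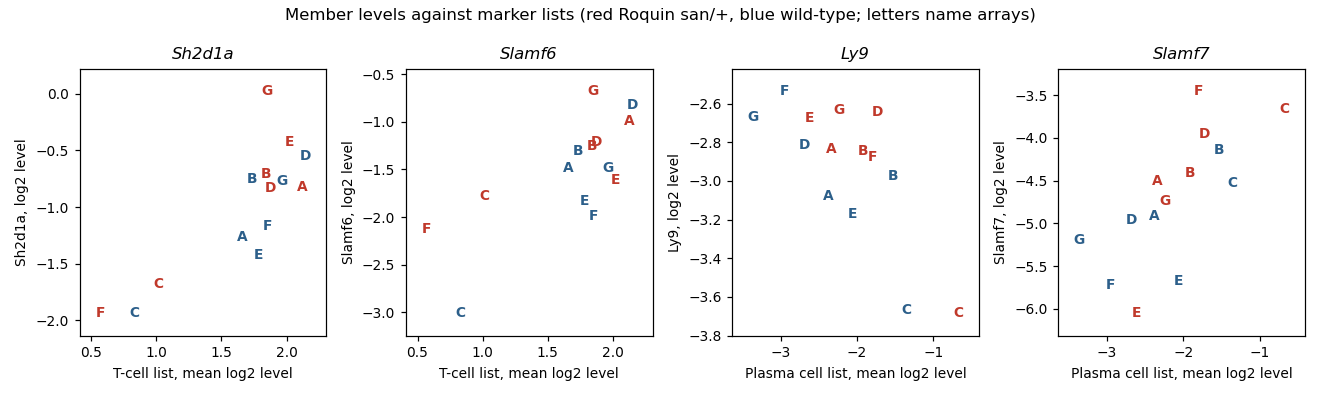
Level of 4 members against the mean level of a marker list on each array, both in log2 units, with letters naming arrays. Sh2d1a and Slamf6 are low where the T-cell list is low (Roquin san/+ C and F, wild-type C), Ly9 is lowest on both C arrays where the plasma cell list is high, and Slamf7 rises along the plasma cell list.

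The genes whose levels were most like a member's were taken from 15446 genes by Spearman rho with genotype means removed. For Cd48 they were Mapkapk3 (0.98), Aldh3a2 (0.97) and Mfsd14a (0.97). For Ly9 they were Chmp6 (0.97), Ercc1 (0.96) and Borcs8 (0.94). For Slamf7 they were Tpd52 (0.96), Hepacam2 (0.94) and Naa40 (0.93). Sh2d1a was most like Crtc3 (0.95), Commd10 (0.95) and Rnaset2a (0.94), and Slamf1 most like Tmem106b (0.96), Slf2 (0.93) and Trnt1 (0.93). Slamf6 was most like Gprin3 (0.93), Ehd3 (0.91) and Mtmr7 (0.90), and Cd84 like Rnf44 and Fam214a (0.92 each). Cd244 was most like Ptpn21 (0.97), Zfp282 (0.93) and Gm28321 (0.88). For Cd244 this holds for A_55_P1977812, with which its other probes had Spearman rho of only 0.23 and 0.45. The members were left out of this ranking, so none could be listed.

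The wider pathway was taken as 26 genes of SLAM signalling outside the members. Of these, 24 were tested, and by their representative probes 0 passed the test and 0 had an unadjusted limma p below 0.05. Over all 49 tested probes of these genes 0 passed, and 2 had an unadjusted limma p below 0.05, A_55_P2716586 of Arhgef7 (difference 1.45, exact permutation p = 0.010) and A_55_P2716281 of Ptprc (0.58, exact permutation p = 0.043), beside 3.23% of all probes. The pair was chosen after its values were seen. On the Arhgef7 probe the highest Roquin san/+ array stood at -1.79, against a median of -5.58 for that genotype. The representative Arhgef7 probe differed by 0.27 and A_55_P2716591 by 0.32, and the representative Ptprc probe by 0.25. By representative probes, 19 genes were higher in Roquin san/+ and 5 were lower. Their median difference of 0.10 equalled the median over all probes. The remaining pair, Sh2d1b1 and Sh2d1b2, encode the SAP relatives of NK and myeloid cells. No probe of these was well above background on more than 1 of 12 arrays. Of the kinases that work with SAP, Lck differed by 0.03 and Fyn by 0.31 ± 0.29 (SE, adjusted limma p of 0.88).

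The widest differences of the list were those of Slamf8 (1.05 ± 0.59, SE), a receptor of macrophages, Slamf9 (0.96 ± 0.67), a receptor of myeloid cells, Plcg2 (0.82 ± 0.62), the phospholipase of B-cell receptor signalling, and Ptpn11 (0.34 ± 0.19), which encodes the phosphatase SHP-2. Their adjusted limma p were all 0.88. Slamf8 was highest on Roquin san/+ F (-3.86, against -8.54 to -5.21 on the others), and Plcg2 as well (1.1, against -4.01 to -0.99). Without that array the differences were 0.65 for Slamf8, 0.70 for Slamf9, 0.32 for Plcg2 and 0.38 for Ptpn11.

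Rc3h1, which carries the sanroque allele, had levels from -2.15 to -1.67 in Roquin san/+ and from -2.37 to -1.32 in wild-type, a difference of -0.07 ± 0.17 (SE, adjusted limma p of 0.96). The allele is a point mutation and a 60-base probe elsewhere in the gene does not read it, so this checks no label.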

How the data were processed

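One-colour arrays were read for CD4+ T-cell RNA of 14 mice, 7 of each genotype. The authors deposited spot intensity values (processed, mean and background signals) from Agilent Feature Extraction 10.5.1.1, named in the submitters' processing notes, and a series table of log2 values. The deposited log2 columns correlated with the scanner log2 values at 0.96 to 0.99, had medians of 6.20 to 6.23, and their exact scaling and centring are not given in the sources used here. They served as an alternative.

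Control spots and outlier flags were left out (population outlier flags were kept on the 2 displaced arrays), and spots of a probe were averaged. Levels were log2 processed signal from which the 75th percentile of the array was subtracted, taken over 10345 probes that passed the scanner's background test on every array. Of 56605 probes, 32831 were tested, those well above background on at least 6 of the 12 correctly placed arrays with a value on all 14. The number of arrays limits the precision. Fits used limma 3.58.1 in R 4.3.3 with Benjamini-Hochberg adjustment, tested on simulated data. Over the 14 arrays exact permutation used all 3432 arrangements, with 0.000583 as the smallest p. With arrays left out it used all arrangements of the arrays kept, which are fewer. As nothing says how the mice were bred or processed, p-values measure the spread between these arrays. Shared runs of 15 bases were counted between probe sequences. Gene order and current names came from RefSeq (GRCm38.p6), and all 8 members matched.

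Members and lists were chosen with earlier results of these data known. Named genes were all members, the pathway genes past the threshold or else the 4 with the widest difference, the 3 genes most like each member (1 of those for Cd84 is not reported here), and Rc3h1. Alternatives covered background correction, scaling, the filter, re-registration, slide, replicate letter, variance model, choice of probe and left-out arrays. Marker lists held T-cell, Tfh, CD8 T-cell, B-cell, plasma cell, myeloid, NK and erythroid genes.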

Additional observations from a re-analysis of the deposited data

Results flagged for a closer look

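Gaps of 1 array to the nearest other array of its genotype, as a share of the range of that genotype, were examined for the 20 member probes and the 8 marker lists. They were wide in 12 of 56 sets of arrays, where chance flags about 1 in 20. Roquin san/+ C was highest for the Cd244 probes A_55_P1977812 (gap 0.793 of the range) and A_55_P2900848 (0.607) and for the Cd84 probe A_55_P2713778 (0.676), and lowest for the Ly9 probe A_51_P497171 (0.769). Wild-type C was lowest for the Slamf6 probe A_66_P140847 (0.638), the Cd84 probe A_55_P2487504 (0.787) and the T-cell list (0.63). Wild-type E was highest for the dim Sh2d1a probe A_55_P2012071 (0.586), where it lay at the lowest signal of its array. Roquin san/+ F was highest for the CD8 T-cell (0.796), myeloid (0.695) and NK (0.706) lists. Roquin san/+ G was highest for the Tfh list (0.648).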

How the results depend on the processing

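No member and no pathway gene passed the test under any alternative run, and 0 of all probes did with limma, where 1062 of 32831 had an unadjusted p below 0.05. That count was 449 with slide as a block, 615 without wild-type A, 679 without wild-type F, 2291 without Roquin san/+ E and 3154 without wild-type E. Cd84 and Slamf6 kept the direction of a higher mean in Roquin san/+ in all alternatives. The filters, the replicate block and the limma variance settings other than array weights could not change a direction. The number of members with a higher mean was 5 with probe names as deposited and 5 within slide 1, and 7 to 8 when 1 array was left out. Ly9 turned to -0.077 with quantile normalization, -0.072 with the 75th percentile of all probes, -0.0076 with the authors' values, -0.087 with deposited names, -0.38 within slide 1 and -0.012 without wild-type C. Leaving out 1 array moved Ly9 between -0.012 and 0.23 and Cd244 between 0.02 and 0.62. Cd244 turned to -0.15 within slide 2 and -0.19 with array weights, and, in alternatives chosen after seeing the data, to -0.099 without Roquin san/+ C and F and both displaced arrays and to -0.079 without both C arrays. Cd48 was -0.049 and Sh2d1a -0.11 with deposited names, and -0.097 and -0.055 within slide 1. Slamf7 was -0.16 within slide 2 and Slamf1 -0.0060 with array weights. The cause was not tested. The median of the pathway list lay between -0.07 and 0.18. Without the filter the median difference of all probes was 0.40.

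Each letter held an array of each genotype, so a replicate block could not change a member's difference (Slamf7 0.62). With that block 0 members were called (Slamf7 adjusted limma p of 0.90). Arrays of the same letter did not pair, with correlations of their deviations from -0.28 to 0.41. Dim probes were limited by the lowest signals of the displaced arrays.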
